A study of Mus musculus with 8 samples.

Results

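The genes described here are 9 genes of the bone morphogenetic protein (BMP) pathway among the 56923 genes counted in thymic epithelial cells (TECs): the Id genes *Id1*, *Id2*, *Id3* and *Id4*, the ligands *Bmp2*, *Bmp4* and *Bmp7*, and the feedback inhibitors *Smad6* and *Bambi*. They were found in the count tables by the Ensembl gene identifier of each symbol, and all 9 passed the filter on low counts. *Id2* was picked because it rose in organoids, so its values in organoids are given as a description with no test. Bulk RNA sequencing covered 8 libraries, 2 biological replicates for each of 4 groups, all wild type and labelled as untreated. *In vivo* TECs were EpCAM+ cells sorted from thymi of C57BL/6J embryos (E16.5) and lysed at once, and the same sorted cells were the start of every culture. For the 2D group they were plated on laminin and collected as a confluent monolayer after 3 days, and for the organoid groups they were embedded in growth factor-reduced Matrigel and collected on day 3 (D3 organoids) or day 7 (D7 organoids). All cultures received the same medium with FGF7, with the ROCK inhibitor thiazovivin added at first, and the medium as listed names neither a BMP nor a BMP antagonist. A sort on EpCAM takes cortical and medullary TECs and their progenitors together, so each library is an average over these cells.

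BMP ligands are secreted dimers that bind pairs of type I and type II serine/threonine kinase receptors. The receptors phosphorylate Smad1, Smad5 and Smad9, which enter the nucleus with Smad4 and bind regulatory DNA of target genes, of which the Id genes are the best known. Id proteins have a helix-loop-helix domain but no DNA-binding region, and they hold E proteins and related transcription factors away from DNA. Smad6 blocks the phosphorylated Smads from inside the cell, and Bambi is a membrane pseudoreceptor without a kinase domain. Both are commonly induced by the pathway that they restrain. In the embryo, BMP4 from the mesenchyme and epithelium of the thymic rudiment takes part in thymus formation.

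The 4 Id genes lie on different chromosomes of the GRCm39 assembly. *Id1* (ENSMUSG00000042745) is at chr2:152566218-152579544 on the forward strand, *Id2* (ENSMUSG00000020644) at chr12:25143798-25147282 on the reverse strand, *Id3* (ENSMUSG00000007872) at chr4:135870808-135873066 on the forward strand, and *Id4* (ENSMUSG00000021379) at chr13:48414558-48419502 on the forward strand. Their promoters are shown because all 4 Id genes had their highest levels in organoids. Another reason is that Smad-bound elements upstream of *Id1* are known for the motifs GGCGCC and CAGAC. Each promoter is the 250 bases before the start of the canonical GENCODE transcript, written 5′ to 3′ on the strand of the gene, and capitals mark GGCGCC, which reads the same on both strands, or CAGAC, which appears as GTCTG when it lies on the other strand. A further 210 bases are shown for *Id1*, because they hold its only GGCGCC, at position −1093 relative to the start. The windows are chr2:152577915-152578164 (+) and chr2:152576965-152577174 (+) for *Id1*, chr12:25147283-25147532 (−) for *Id2*, chr4:135870558-135870807 (+) for *Id3* and chr13:48414308-48414557 (+) for *Id4*. Both *Id1* windows lie inside the annotated span of the gene, because its canonical transcript starts within that span. The sequence before the start of the whole *Id1* span was not analysed.
Id1 promoter: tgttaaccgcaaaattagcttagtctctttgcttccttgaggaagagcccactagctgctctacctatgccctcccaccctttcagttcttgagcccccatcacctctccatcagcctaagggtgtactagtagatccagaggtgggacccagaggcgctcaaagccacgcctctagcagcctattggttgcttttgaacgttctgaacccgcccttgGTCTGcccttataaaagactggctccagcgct
Id1 upstream stretch: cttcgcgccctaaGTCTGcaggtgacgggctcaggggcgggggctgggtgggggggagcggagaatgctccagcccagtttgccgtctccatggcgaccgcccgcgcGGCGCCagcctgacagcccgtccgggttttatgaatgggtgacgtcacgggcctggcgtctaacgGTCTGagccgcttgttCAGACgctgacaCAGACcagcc
Id2 promoter: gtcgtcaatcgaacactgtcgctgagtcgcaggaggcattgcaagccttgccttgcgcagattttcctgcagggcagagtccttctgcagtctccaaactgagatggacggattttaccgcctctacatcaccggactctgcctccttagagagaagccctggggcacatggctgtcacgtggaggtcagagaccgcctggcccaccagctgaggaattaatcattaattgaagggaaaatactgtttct
Id3 promoter: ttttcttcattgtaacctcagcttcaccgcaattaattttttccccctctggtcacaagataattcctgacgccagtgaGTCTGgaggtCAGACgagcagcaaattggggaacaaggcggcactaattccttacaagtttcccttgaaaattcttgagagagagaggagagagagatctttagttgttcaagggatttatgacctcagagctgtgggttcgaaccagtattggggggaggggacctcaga
Id4 promoter: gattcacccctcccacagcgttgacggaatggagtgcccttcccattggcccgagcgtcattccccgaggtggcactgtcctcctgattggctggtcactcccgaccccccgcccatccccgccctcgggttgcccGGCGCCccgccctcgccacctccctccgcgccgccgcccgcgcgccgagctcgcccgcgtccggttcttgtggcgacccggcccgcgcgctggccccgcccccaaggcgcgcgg

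Neither motif was present in all 4 Id promoters. Within 250 bases, *Id1* held 1 CAGAC, *Id3* held 2 and *Id4* held 1 GGCGCC, whereas *Id2* held neither motif. Of the promoters of 21247 genes, 9.26% held GGCGCC and 41.4% held CAGAC in a window of this length. Over 1500 bases, where 16.9% of promoters held GGCGCC and 95.9% held CAGAC, *Id1* had GGCGCC at position −1093 with CAGAC at −1187, −1028, −1012, −1000 and −32. *Id2* had 5 CAGAC and no GGCGCC in that longer window, and *Id3* had 7 CAGAC and no GGCGCC. *Id4* had its GGCGCC at −114 and no CAGAC. Of the ligands and inhibitors, *Smad6* had 1 GGCGCC, at −932, and 3 CAGAC, *Bmp7* had 4 CAGAC, and *Bmp2* and *Bmp4* had 1 each. The matches listed did not overlap each other, and the *Bambi* promoter was not analysed. These are matches of letters, and binding was not measured.

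Counts on genes summed to between 5084715 and 7612532 per library, with 16748 to 19943 genes detected, and ribosomal RNA genes took 22.7% to 29.4% of the counts. No library was a copy of its replicate, since the counts of each pair varied beyond sampling noise. Levels are given as CPM, the count relative to the TMM-scaled library size, and are compared within a gene and not between genes. With 2 libraries in a group, an exact two-sided test cannot go below p = 0.333, so differences were tested across 14504 genes in all 8 libraries with edgeR's quasi-likelihood test, at a threshold of 0.05 on the p adjusted over all of these genes by the Benjamini-Hochberg method. Every difference is a log2 fold change with its standard error (SE), positive where the group named earlier was higher, and each group enters 3 of the 6 comparisons, so these are not independent of each other. *Epcam*, *Krt8* and *Krt18* were present in all groups. *Krt8* and *Krt18* differed by −2.14 and −2.76 between D3 organoids and *in vivo* TECs and by −2.49 and −1.83 in D7 organoids. *Epcam* went the other way, by 1.55 in D3 and 1.16 in D7 organoids, and *Cdh1* differed by 0.24 and 0.30. *Krt5*, which marks medullary TECs, differed by −0.09 in D3 and −1.89 in D7 organoids. In 2D, *Epcam*, *Krt8*, *Krt18*, *Cdh1* and *Krt5* differed from *in vivo* TECs by 1.95, 1.19, 0.95, 1.75 and 1.42. *Psmb11*, which marks cortical TECs, was near the floor in both groups collected after 3 days, with 3 and 3 counts in 2D and 3 and 7 in D3 organoids, against 3006 and 3942 *in vivo* and 858 and 570 in D7 organoids. *Foxn1*, the transcription factor gene that defines TECs, was also low in both, at 47 and 26 counts in 2D and 52 and 69 in D3 organoids, against 1287 and 1945 *in vivo* and 489 and 431 in D7 organoids. The summed level of 9 thymocyte genes was 292 to 661 CPM *in vivo* and at most 9.29 CPM in any culture, with 7 of the 9 above 3 counts *in vivo* and 2 to 4 in the cultures. For 7 mesenchymal genes it was 45.4 to 46.1 CPM *in vivo*, 29.7 to 35.8 CPM in 2D, 17.9 to 21.8 CPM in D3 organoids and 70.6 to 79.5 CPM in D7 organoids, with 6, 5, 5 and 6 of the 7 above 3 counts in these groups. The higher sum in D7 organoids was carried by *Dcn*, at 53.6 and 51.0 CPM, and *Lum*, at 14.9 and 7.51 CPM, while *Pdgfrb* had 47 and 30 counts *in vivo* and 2 and 0 in D7 organoids, *Col1a1* had 48 and 29 *in vivo* and 12 and 6 in D7 organoids, and *Pdgfra* had 0 to 8 in any library. The 7 endothelial genes summed to 5.22 CPM at most, with 5 of them at 0 *in vivo*. The part of these cells in the results below was not tested. In bulk RNA, a change in the number of expressing cells cannot be told apart from a change in RNA per cell.

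All 4 Id genes had their highest levels in organoids, and *Id3* and *Id4* were lower in 2D than *in vivo*. *Id1* rose in every culture and most in D7 organoids, where it stood 5.37-fold above *in vivo* TECs. *Id3* and *Id4* were 4.08-fold and 4.11-fold above *in vivo* TECs in D7 organoids. *Id2*, described without a test there, was 17.9-fold higher.

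*Id1* encodes an Id protein that is induced by BMP signals in many cell types. Its level was 19.1 and 23.8 CPM *in vivo*, 50.7 and 49.4 CPM in 2D, 59.0 and 73.4 CPM in D3 organoids, and 128 and 104 CPM in D7 organoids. The 4 groups did not overlap, and their order was *in vivo*, 2D, D3 and D7. Against *in vivo* TECs the change was 1.21 in 2D (SE 0.20, adjusted p = 0.00012), 1.62 in D3 organoids (SE 0.20, adjusted p = 8.8e-06) and 2.43 in D7 organoids (SE 0.20, adjusted p = 8.1e-08). D7 organoids were also above 2D cultures by 1.21 (SE 0.19, adjusted p = 6.8e-05). D3 organoids and 2D cultures, both collected after 3 days, differed by 0.40 (SE 0.19, adjusted p = 0.11), which did not pass the threshold, although with library size alone as the scale the difference was 0.67 (adjusted p = 0.015). From D3 to D7 *Id1* rose by 0.81 (SE 0.19, adjusted p = 0.0057), a call that was lost without D3 replicate 1 (adjusted p = 0.076) or D7 replicate 1 (adjusted p = 0.07).

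*Id2* is known as a regulator of lymphoid and epithelial differentiation. It had 55.5 and 53.0 CPM *in vivo*, 69.5 and 87.4 CPM in 2D, 355 and 370.5 CPM in D3 organoids, and 970.2 and 978 CPM in D7 organoids. No groups overlapped, and the replicates of D7 organoids lay closer together (SD 5.43 CPM, n = 2) than those of 2D cultures (SD 12.7 CPM, n = 2). The log2 difference from *in vivo* TECs was 2.74 (SE 0.16) in D3 and 4.17 (SE 0.17) in D7 organoids, and that from 2D cultures was 2.21 (SE 0.16) and 3.63 (SE 0.16). D7 exceeded D3 organoids by 1.43 (SE 0.15). Its comparison of 2D with *in vivo* TECs, tested by edgeR, gave a rise of 0.53 (SE 0.16, adjusted p = 0.012). This comparison uses the *in vivo* and 2D libraries against which the rise in organoids was seen. It is therefore not independent of the choice of *Id2*. That call was lost with library size alone (0.35, adjusted p = 0.086), without *in vivo* replicate 2 (adjusted p = 0.061) and without 2D replicate 2 (adjusted p = 0.14).

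*Id3*, which is known for its part in lymphocyte development, rose most over 2D cultures among the 8 genes tested in organoids. It stood at 43.3 and 43.6 CPM *in vivo*, 14.9 and 16.0 CPM in 2D, 158 and 159 CPM in D3 organoids, and 235 and 119 CPM in D7 organoids. All groups were apart from each other except D3 and D7 organoids, since the D3 libraries lay between the D7 libraries. In 2D it fell by 1.49 relative to *in vivo* TECs (SE 0.27, adjusted p = 0.00022). It rose by 1.87 in D3 organoids (SE 0.24, adjusted p = 1.2e-05) and by 2.03 in D7 organoids (SE 0.24, adjusted p = 4.8e-06) relative to *in vivo* TECs. D3 organoids exceeded 2D cultures by 3.36 (SE 0.27, adjusted p = 2.7e-08) and D7 organoids exceeded them by 3.52 (SE 0.27, adjusted p = 1.2e-08). Between D7 and D3 organoids the difference was 0.16 (SE 0.23, adjusted p = 0.66), and it was 0.57 or −0.41 when D7 replicate 2 or D7 replicate 1 was left out.

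*Id4*, the Id family member best known from neural and mammary progenitors, had the same order of groups as *Id3*. Its levels were 30.8 and 29.5 CPM *in vivo*, 22.5 and 17.4 CPM in 2D, 49.3 and 59.7 CPM in D3 organoids, and 126 and 122 CPM in D7 organoids. No groups overlapped. It rose over *in vivo* TECs by 0.86 in D3 organoids (SE 0.19, adjusted p = 0.0027) and by 2.04 in D7 organoids (SE 0.19, adjusted p = 3.6e-07). Over 2D cultures it rose by 1.45 in D3 organoids (SE 0.20, adjusted p = 2e-05) and by 2.63 in D7 organoids (SE 0.20, adjusted p = 1.5e-08). The step from D3 to D7 was 1.18 (SE 0.19, adjusted p = 0.00034). The fall of 0.59 in 2D relative to *in vivo* TECs (SE 0.20, adjusted p = 0.028) had the highest adjusted p of the Id differences that passed the threshold, and that p was 0.083 without the filter on low counts, 0.085 with only the compared groups in the fit, 0.084 and 0.062 without *in vivo* replicate 1 or 2, and 0.21 without 2D replicate 2.

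**Figure D1:**
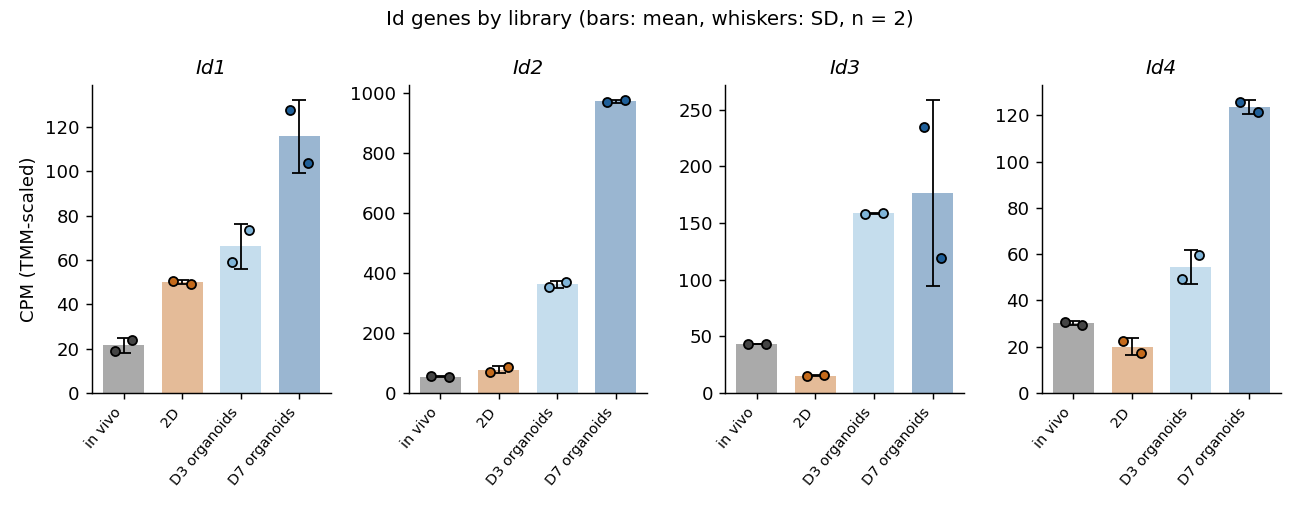
Level of each Id gene by library, in CPM on a linear axis from 0 with a separate scale for each gene. Points are libraries, bars are means and whiskers are SD (n = 2), and in each panel the organoid bars stand above the *in vivo* and 2D bars, with D7 means of 116, 974, 177 and 124 CPM for *Id1*, *Id2*, *Id3* and *Id4*.

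The ligands did not move together. *Bmp2* fell in every culture and was nearly undetected in D7 organoids, *Bmp4* fell in 2D and rose in D7 organoids, and *Bmp7* rose in D3 organoids. *Bmp2* (ENSMUSG00000027358, chr2:133394079-133404816, forward strand) encodes BMP2, a ligand closely related to BMP4. *Bmp4* (ENSMUSG00000021835, chr14:46620250-46636745, reverse strand) encodes the BMP studied most in thymus development, and *Bmp7* (ENSMUSG00000008999, chr2:172709805-172782410, reverse strand) belongs to another subgroup of the family.

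*Bmp2* had 7.66 and 11.8 CPM *in vivo* (44 and 84 counts), 3.64 and 2.97 CPM in 2D, 2.87 and 3.22 CPM in D3 organoids, and 0.124 and 0.198 CPM in D7 organoids, where each library held 1 count. The *in vivo* libraries lay above all cultures, the D7 libraries lay below all others, and 2D and D3 overlapped. On summed counts the level *in vivo* was 65.4 times that in D7 organoids (95% exact Poisson interval 17.7 to 546), that in 2D was 21.7 times (5.58 to 186), and that in D3 organoids was 20.1 times (5.21 to 171). These intervals cover counting error only. The edgeR test called D7 organoids lower than *in vivo* TECs (adjusted p = 2.6e-05), 2D cultures (adjusted p = 0.00061) and D3 organoids (adjusted p = 0.0025). *Bmp2* was lower than *in vivo* by 1.56 in 2D (SE 0.55, adjusted p = 0.031) and by 1.67 in D3 organoids (SE 0.55, adjusted p = 0.03), and D3 organoids and 2D cultures differed by −0.12 (SE 0.57, adjusted p = 0.9). Both of these falls rested on every library but *in vivo* replicate 1, since leaving out any of the others gave an adjusted p of 0.086 to 0.2 in 2D and 0.099 to 0.19 in D3 organoids.

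*Bmp4* followed another order. It had 13.4 and 15.5 CPM *in vivo*, 5.09 and 5.94 CPM in 2D, 14.2 and 18.5 CPM in D3 organoids, and 34.0 and 27.7 CPM in D7 organoids. The 2D libraries were the lowest, the D7 libraries were the highest, and *in vivo* TECs and D3 organoids overlapped. In 2D *Bmp4* fell by 1.39 relative to *in vivo* TECs (SE 0.30, adjusted p = 0.0013). D3 organoids differed from *in vivo* TECs by 0.18 (SE 0.27, adjusted p = 0.68) and exceeded 2D cultures by 1.57 (SE 0.30, adjusted p = 0.00049). D7 organoids exceeded *in vivo* TECs by 1.09 (SE 0.26, adjusted p = 0.004) and 2D cultures by 2.48 (SE 0.29, adjusted p = 3e-06). The rise over *in vivo* TECs was not called without D7 replicate 1 (adjusted p = 0.061). From D3 to D7 it rose by 0.92 (SE 0.26, adjusted p = 0.019), with an adjusted p of 0.059 to 0.17 without D3 replicate 1, D7 replicate 1 or D7 replicate 2. The antisense gene *Gm15222* overlaps *Bmp4* and had 24 to 32 counts *in vivo*, 3 to 6 in 2D, 3 to 15 in D3 organoids and 5 to 23 in D7 organoids, against 28 to 274 counts of *Bmp4*. The strand used in counting was not given in the sources used here, so reads of these genes may not be told apart.

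*Bmp7* varied over a narrower range, from 49.6 and 50.8 CPM *in vivo* and 56.6 and 50.5 CPM in 2D to 88.9 and 82.9 CPM in D3 organoids and 63.5 and 74.7 CPM in D7 organoids. D3 organoids were the highest group, D7 organoids came next, and *in vivo* TECs and 2D cultures overlapped below them. D3 organoids exceeded *in vivo* TECs by 0.77 (SE 0.18, adjusted p = 0.0028) and 2D cultures by 0.68 (SE 0.18, adjusted p = 0.0053), the latter with an adjusted p of 0.056 without 2D replicate 2. D7 organoids were 0.46 above *in vivo* TECs (SE 0.18, adjusted p = 0.053), at the edge of the threshold, and limma-voom gave an adjusted p of 0.047. D7 organoids differed from 2D cultures by 0.37 (SE 0.18, adjusted p = 0.1) and from D3 organoids by −0.32 (SE 0.17, adjusted p = 0.22). The difference between 2D and *in vivo* TECs was 0.09 (SE 0.18, adjusted p = 0.71).

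No rise of a feedback inhibitor passed the threshold. *Smad6* (ENSMUSG00000036867, chr9:63860341-63929793, reverse strand) had 8.53 and 15.1 CPM *in vivo*, 13.1 and 8.72 CPM in 2D, 14.7 and 9.93 CPM in D3 organoids, and 13.1 and 15.2 CPM in D7 organoids. Its group means had the same order as those of *Id3* and *Id4*, from 10.9 CPM in 2D to 14.2 CPM in D7 organoids. Neighbouring groups overlapped throughout. None of its 6 comparisons passed the threshold, with differences from −0.12 to 0.37, SE of 0.35 to 0.36 and adjusted p of 0.42 to 0.94. These values rest on 47 to 107 counts per library.

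*Bambi* (ENSMUSG00000024232, chr18:3507871-3516404, forward strand) was highest *in vivo*, at 12.9 and 9.03 CPM. It had 2.91 and 3.71 CPM in 2D, 3.04 and 5.31 CPM in D3 organoids, and 2.73 and 0.198 CPM in D7 organoids, where the libraries held 22 and 1 counts. All cultures lay below the *in vivo* libraries, 2D and D3 overlapped, and the D7 libraries lay below both. It fell by 1.72 in 2D (SE 0.65, adjusted p = 0.042) and by 2.75 in D7 organoids (SE 0.68, adjusted p = 0.0048) relative to *in vivo* TECs. The change in D3 organoids was −1.37 (SE 0.62, adjusted p = 0.12), and limma-voom gave an adjusted p of 0.037. D7 organoids differed from D3 organoids by −1.38 (SE 0.70, adjusted p = 0.18) and from 2D cultures by −1.04 (SE 0.72, adjusted p = 0.26), and D3 organoids differed from 2D cultures by 0.34 (SE 0.67, adjusted p = 0.72). The D7 values depended on the library: without D7 replicate 1 the differences from *in vivo*, D3 and 2D were −5.65, −4.27 and −3.93, and without D7 replicate 2 they were −1.99, −0.62 and −0.28. The fall in 2D had an adjusted p of 0.16 without *in vivo* replicate 1, 0.19 without 2D replicate 1 and 0.11 without 2D replicate 2.

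**Figure D2:**
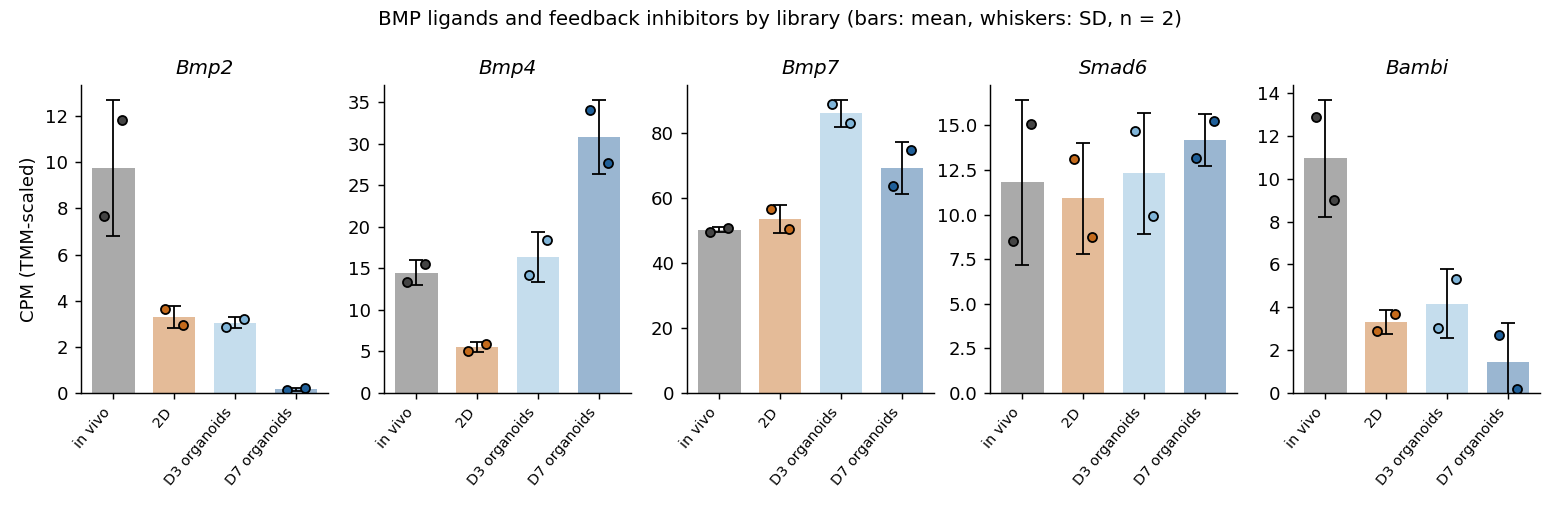
Level of the ligands *Bmp2*, *Bmp4* and *Bmp7* and of the inhibitors *Smad6* and *Bambi* by library, in CPM on linear axes from 0 with a separate scale for each gene. Points are libraries, bars are means and whiskers are SD (n = 2, cut at 0 for *Bambi* in D7 organoids), with *Bmp2* and *Bambi* highest *in vivo*, *Bmp4* highest in D7 organoids, *Bmp7* highest in D3 organoids and *Smad6* level across groups within its spread.

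Between 2D and *in vivo* TECs 41.6% of all genes tested passed the threshold (19.9% higher, 21.7% lower). By number, 7 of the 9 genes passed it there, 2 higher and 5 lower. *Id2* was among the 2 higher, a call that is not independent of its choice. Without *in vivo* replicate 2 the number was 4, and without 2D replicate 2 it was 3. In the comparisons with organoids *Id2* was left out, which leaves 8 genes. Between D3 organoids and *in vivo* TECs 5 of 8 passed, 4 higher and 1 lower, beside 28.2% of all genes (14.1% higher, 14% lower). In D7 organoids relative to *in vivo* TECs 6 of 8 passed, 4 higher and 2 lower, beside 34.8% (18% higher, 16.8% lower). Against 2D cultures, 4 of 8 were higher and none lower in D3 organoids, beside 38.3% of all genes (19.3% higher, 19.1% lower). In D7 organoids 4 were higher than in 2D and 1 lower, beside 45.5% (24.4% higher, 21.1% lower). Between D7 and D3 organoids 4 of 8 passed, 3 higher and 1 lower, beside 20.8% (10.9% higher, 9.91% lower), and without D3 replicate 1 the number was 2. The median difference of these genes was −0.59 between 2D and *in vivo* TECs, where the median over all genes was −0.06, and 0.78 between D7 organoids and *in vivo* TECs, where it was 0.01. The genes had been chosen with results of these data known.

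**Figure D3:**
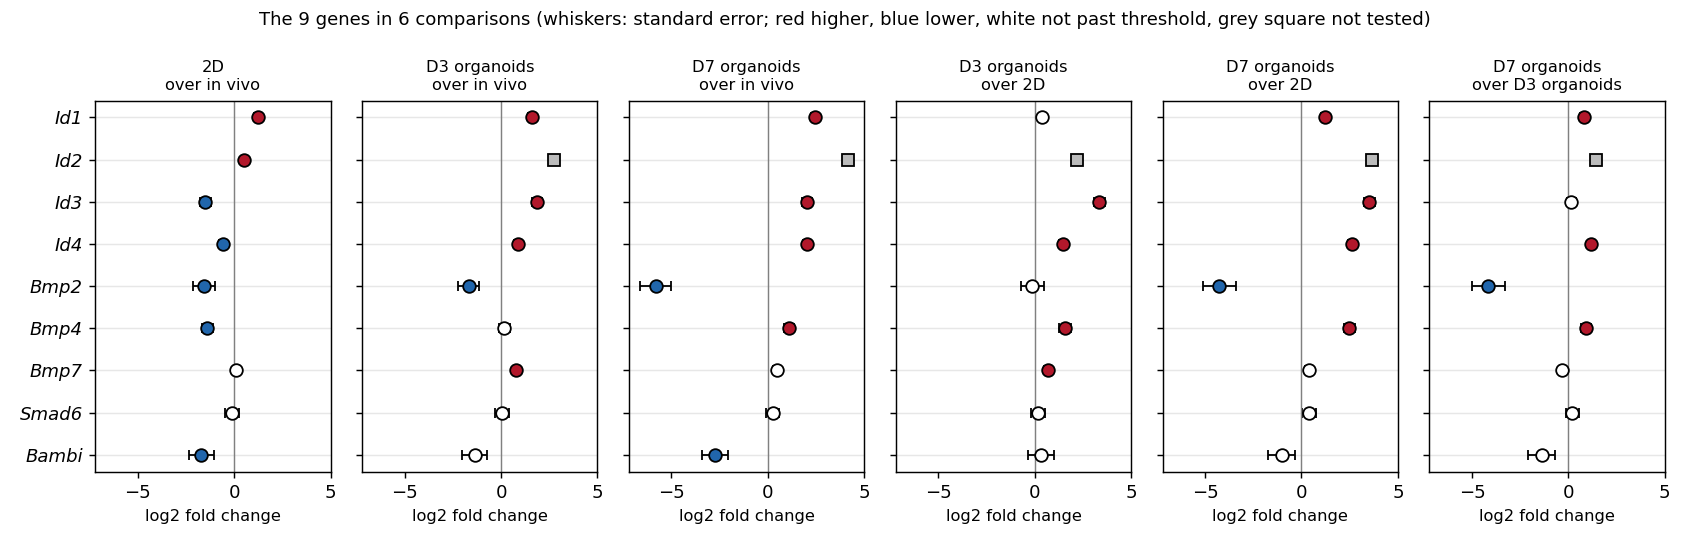
Log2 fold change of the 9 genes (rows) in the 6 comparisons (panels), first-named group over second, with SE as whiskers. Red points were called higher and blue points lower at an adjusted p of 0.05, white points did not pass and grey squares were not tested, and *Id3* and *Id4* lie left of 0 in 2D over *in vivo* and right of 0 in the 4 panels that set organoids against *in vivo* TECs or 2D cultures.

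Around these genes, the rest of the pathway was read from a list of 56 other ligands, receptors, Smads, inhibitors and targets, of which 38 passed the filter. Between 2D and *in vivo* TECs 19 of the 38 passed the threshold (8 higher, 11 lower), and 18 did between D3 organoids and *in vivo* TECs (12 higher, 6 lower). In D7 organoids relative to *in vivo* TECs the number was 19 (14 higher, 5 lower), which became 11 without *in vivo* replicate 1 and 10 without D7 replicate 2. Relative to 2D cultures 22 passed in D3 organoids (12 higher, 10 lower), a number that was 14 without 2D replicate 2, and 22 in D7 organoids (13 higher, 9 lower). Between D7 and D3 organoids 6 passed (4 higher, 2 lower), falling to 3 without D3 replicate 1 and to 2 without D7 replicate 2. These are shares of 50%, 47.4%, 50%, 57.9%, 57.9% and 15.8%, against the shares of all genes given above. In the list, *Gdf5*, *Sostdc1*, *Msx1* and *Dlx5* reached 1 CPM in organoid libraries alone, so the filter kept them for their level there. Each was counted as higher in D7 organoids, both over *in vivo* TECs and over 2D cultures. The median difference of the list was 0.00, 0.15 and 0.16 in the 3 comparisons with *in vivo* TECs, −0.03 and 0.48 in D3 and D7 organoids over 2D, and 0.20 between D7 and D3 organoids, where the medians of all genes were −0.06, −0.01, 0.01, 0.03, 0.10 and 0.06.

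Of the receptors, the type I receptor gene *Bmpr1a* rose in every culture over *in vivo* TECs, by 0.76 in 2D, 0.69 in D3 organoids and 0.75 in D7 organoids (SE 0.19 in each, adjusted p of 0.0038, 0.011 and 0.0049). Its levels were 56.0 and 81.1 CPM *in vivo* and 103 to 125 CPM in the cultures, without overlap. *Bmpr1b*, another type I receptor gene, rose in D3 organoids by 1.04 (adjusted p = 0.025) and in D7 organoids by 1.27 (adjusted p = 0.0061). *Acvr1*, the gene of the type I receptor ALK2, was at 20.5 and 10.6 CPM *in vivo*, 85.1 and 66.6 CPM in 2D, 37.7 and 30.8 CPM in D3 organoids, and 14.4 and 4.55 CPM in D7 organoids, and it fell by 1.78 from D3 to D7 (SE 0.37, adjusted p = 0.0028). Over the 6 tested receptor genes the differences ranged from −0.91 to 2.30 in 2D, from −0.22 to 1.15 in D3 organoids and from −0.63 to 1.27 in D7 organoids relative to *in vivo* TECs, with 3 of 6 higher and none lower at the threshold each time. That is 50% called in each, beside 41.6% of all genes in 2D, 28.2% in D3 organoids and 34.8% in D7 organoids. Of the Smad transducers, *Smad1* fell in all cultures relative to *in vivo* TECs, by 0.48 in 2D (adjusted p = 0.045), 0.90 in D3 organoids (adjusted p = 0.0012) and 0.65 in D7 organoids (adjusted p = 0.011). *Smad4*, the partner shared with other pathways of the family, fell by 0.76 in D3 organoids (adjusted p = 0.0011) and by 0.74 in D7 organoids (adjusted p = 0.0011), and *Smad5* fell in 2D by 0.53 (adjusted p = 0.017). Of the 4 Smad transducer genes, none was called higher in a culture than *in vivo*, and 3 were lower in 2D, 2 in D3 organoids and 2 in D7 organoids, beside 21.7%, 14% and 16.8% of all genes.

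The antagonists that act outside the cell did not move together. Of the 11 tested, 2 were higher in 2D than *in vivo*, *Fst* and *Fstl3*, and 5 were lower, *Fstl1*, *Twsg1*, *Chrd*, *Grem1* and *Sostdc1*, with a median difference of −0.04, beside 41.6% of all genes called. In D3 organoids 4 were higher and 1 lower than *in vivo*, and in D7 organoids 4 were higher and 2 lower, beside 28.2% and 34.8% of all genes. *Sostdc1*, which reached 1 CPM in organoid libraries alone, is among the 5 lower in 2D and the 4 higher in each organoid group. The counts that hold it are a description only. *Fst* encodes follistatin, which binds activins and some BMPs, and it had 0.174 and 0.987 CPM *in vivo* (1 and 7 counts), 125 and 99.5 CPM in 2D, 4.39 and 5.73 CPM in D3 organoids, and 2.85 and 1.78 CPM in D7 organoids. The 2D libraries were above all others, by 7.46 over *in vivo* TECs (SE 0.40, adjusted p = 1.7e-10), while D3 organoids differed from 2D by −4.46 (SE 0.30, adjusted p = 4.1e-09) and D7 organoids by −5.53 (SE 0.33, adjusted p = 7.3e-10). Its relative *Fstl3* was at 31.6 and 30.6 CPM in 2D and between 0.989 and 3.31 CPM in the other 6 libraries, a rise of 3.53 in 2D over *in vivo* TECs (SE 0.42, adjusted p = 2.9e-06). *Fstl1*, which encodes a secreted glycoprotein of the same family, went the other way, with 101 and 152 CPM *in vivo*, 60.7 and 43.8 CPM in 2D and 348 and 384 CPM in D7 organoids, where it rose by 1.53 over *in vivo* TECs (SE 0.20, adjusted p = 1.3e-05). *Sostdc1*, the gene of a secreted antagonist of BMP and Wnt signals, had 4 and 6 counts *in vivo*, 1 and 0 in 2D, 153 and 138 in D3 organoids, and 52 and 29 in D7 organoids. It stood 4.82 above *in vivo* TECs in D3 organoids (SE 0.51), given as a description because the filter kept it for its level in organoids. From D3 to D7 it fell by 1.88 (SE 0.40, adjusted p = 0.0033). Its level in D3 organoids was 242 times that in 2D (95% exact Poisson interval 43.2 to 9606), which is likewise a description. Among the co-receptors, *Rgma* rose by 1.16 in D3 organoids over *in vivo* TECs (SE 0.22, adjusted p = 0.00057). *Tgfbr3*, which encodes betaglycan, had 62.3 and 64.7 CPM *in vivo*, 2.00 and 1.11 CPM in 2D, and 36.8 to 45.3 CPM in organoids, a difference of −5.33 between 2D and *in vivo* TECs (SE 0.30, adjusted p = 2.8e-10).

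Of the inhibitors that act inside the cell, *Smad7*, *Smurf1* and *Skil* had their highest levels in 2D, and they were singled out after their values were seen. *Smad7*, the other inhibitory Smad gene besides *Smad6*, had 10.8 and 16.1 CPM *in vivo*, 45.3 and 54.0 CPM in 2D and 13.3 to 17.6 CPM in organoids, and it rose by 1.88 in 2D (adjusted p = 1.8e-05). *Smurf1*, which encodes a ubiquitin ligase that acts on Smads, rose in 2D by 2.54 (adjusted p = 3e-08), and *Skil*, which encodes a Smad corepressor, rose by 2.01 (adjusted p = 6.9e-08). Both also rose over *in vivo* TECs in organoids, by less than in 2D. *Smurf1* rose by 0.96 in D3 (edgeR adjusted p = 0.0021) and 0.68 in D7 organoids (adjusted p = 0.019). *Skil* rose by 0.55 in D3 (adjusted p = 0.026) and 0.54 in D7 organoids (adjusted p = 0.024). *Tob1*, the gene of an antiproliferative protein that binds Smads, fell by 1.03 in D3 organoids relative to *in vivo* TECs (SE 0.25, adjusted p = 0.0054). Of the 6 tested inhibitors other than *Smad6* and *Bambi*, 3 were higher and none lower in 2D than *in vivo*, which is 50% called beside 41.6% of all genes (19.9% higher). In D3 organoids 2 were higher and 1 lower than *in vivo*, beside 28.2% of all genes called. In D7 organoids 2 were higher and none lower, beside 34.8%. Relative to 2D none was higher, and 4 were lower in D3 organoids and 3 in D7 organoids, beside 19.1% and 21.1% of all genes lower.

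Of the other target genes, *Atoh8*, which encodes a basic helix-loop-helix factor, had an order of groups like that of *Id3* and *Id4*, with 3.66 and 2.82 CPM *in vivo*, 1 and 0 counts in 2D, 4.56 and 4.61 CPM in D3 organoids, and 17.4 and 21.4 CPM in D7 organoids. It rose by 2.58 in D7 organoids over *in vivo* TECs (SE 0.44, adjusted p = 0.00023) and by 2.07 over D3 organoids (SE 0.43, adjusted p = 0.0025), and its summed count per library size in 2D was exceeded 34.8 times *in vivo* (95% exact Poisson interval 5.90 to 1407). *Hey1*, a repressor gene also induced by Notch, had 183 and 162 CPM *in vivo*, 18.7 and 15.4 CPM in 2D, 104 and 108 CPM in D3 organoids, and 179 and 173 CPM in D7 organoids. It fell by 3.33 in 2D relative to *in vivo* TECs (SE 0.18, adjusted p = 2.1e-10) and rose by 0.73 from D3 to D7 (SE 0.16, adjusted p = 0.0035). Of the 4 tested targets other than the Id genes, 2 were lower and none higher in 2D than *in vivo*, 2 were higher and 1, *Hey1*, lower in D3 organoids, and 3 were higher in D7 organoids, beside 41.6%, 28.2% and 34.8% of all genes called. Over 2D, 3 were higher in D3 organoids and 4 in D7 organoids, beside 19.3% and 24.4% of all genes higher, and 2 were higher in D7 than in D3 organoids, beside 10.9%. *Msx1* and *Dlx5* held 0 counts *in vivo*, at most 1 in a 2D library and 7 to 28 in organoid libraries. They reached 1 CPM in organoid libraries alone, so the filter kept them for their level there. They were the 2 higher in D3 organoids than *in vivo* and 2 of the 3 in D7 organoids. Over 2D, *Msx1* is counted in D3 organoids and both in D7 organoids. The counts that hold them are a description only.

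**Figure D4:**
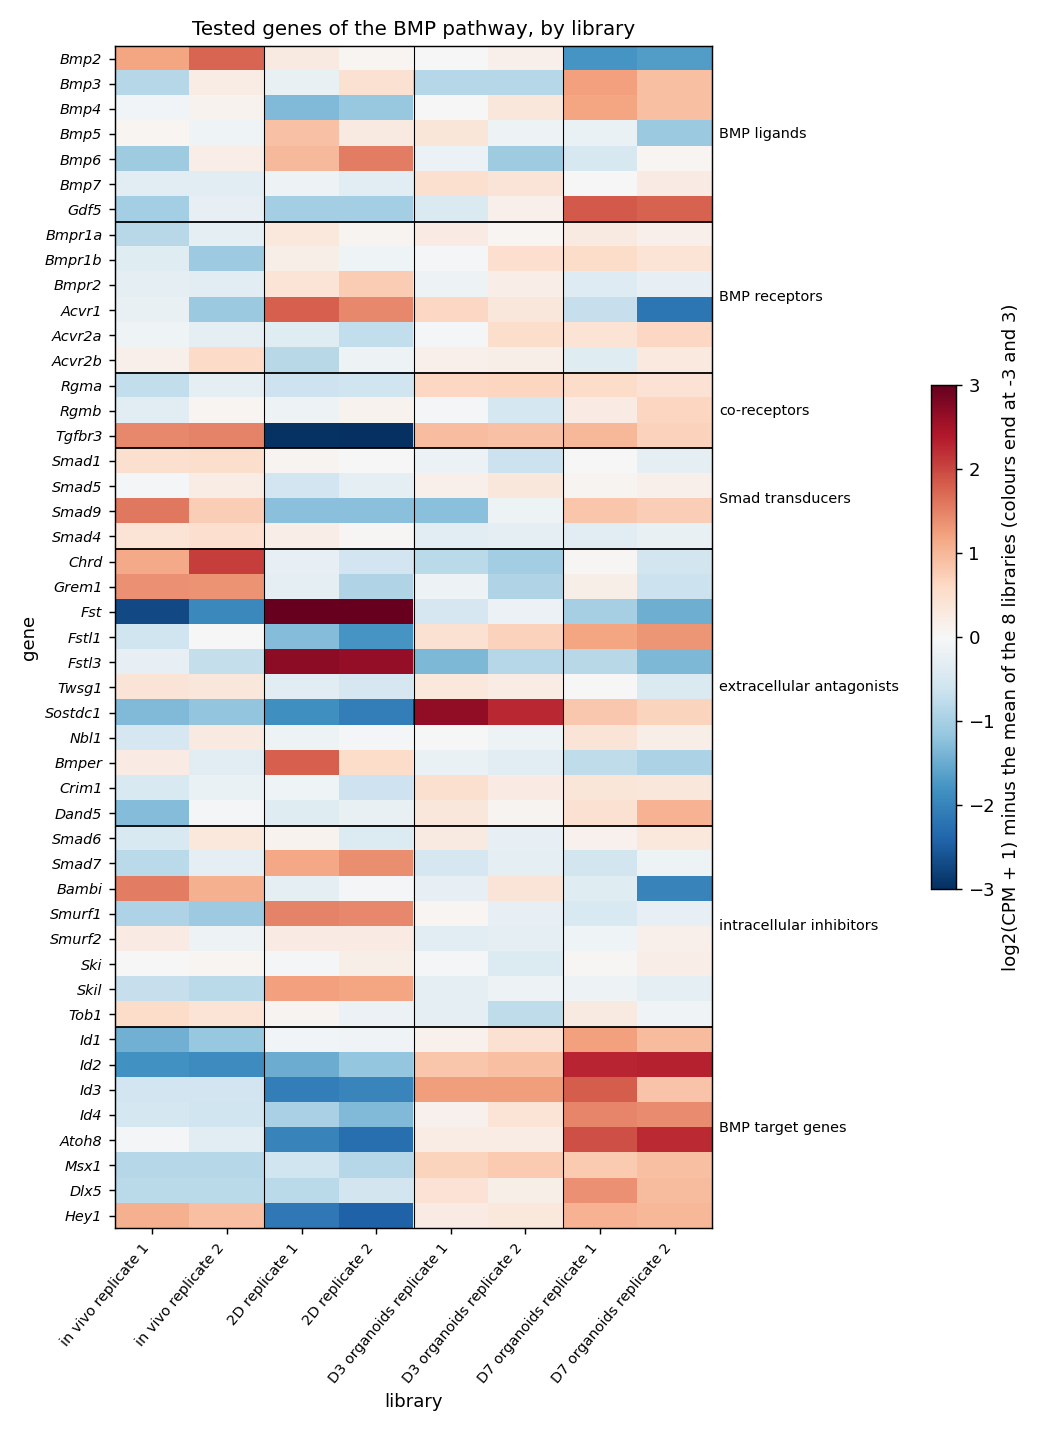
The 47 tested genes of the pathway (rows, grouped by role) in the 8 libraries (columns), as log2(CPM + 1) minus the mean of the 8 libraries, with colours ending at −3 and 3. The target genes at the bottom are above their mean in D7 organoids and, apart from *Id1*, which is near it, below their mean in 2D, while *Fst*, *Fstl3*, *Smad7*, *Smurf1* and *Skil* are above their mean in 2D.

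The profiles of 4 of the genes were set beside those of all 9018 genes with a mean of at least 10 CPM, by Pearson's r of log2 CPM over the 8 libraries, as a description. The libraries form 4 groups of 2, so a high r says mainly that the group levels had the same order and spacing. Nearest to *Id1* were *Aldoc* (r = 0.990), which encodes a glycolytic aldolase, *Saraf* (r = 0.989) and *Yif1a* (r = 0.982), and *Aldoc* had mean levels of 6.73 CPM *in vivo*, 22.1 CPM in 2D, 47.1 CPM in D3 organoids and 139 CPM in D7 organoids. Nearest to *Id2* were *Padi1* (r = 0.994), which encodes a peptidylarginine deiminase, and the neighbouring membrane protein genes *Tmem176a* (r = 0.994) and *Tmem176b* (r = 0.993). *Padi1* had mean levels of 1.02, 2.49, 15.5 and 39.5 CPM in these groups, in the same order. Nearest to *Id3* were *Nab2* (r = 0.995), which encodes a corepressor of Egr factors, *Pou2af3* (r = 0.994) and *Cdkn1b* (r = 0.987), the gene of the cell cycle inhibitor p27. Nearest to *Bmp4* were *Ganc* (r = 0.987), *Mfap1a* (r = 0.987) and *Psat1* (r = 0.982), an enzyme gene of serine synthesis.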

How the data were processed

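QuantSeq 3′ libraries, which read the end of polyadenylated transcripts, were sequenced by the authors on an Illumina NextSeq and aligned to GRCm39 with STAR 2.7.0e, and the deposited files hold raw read counts per Ensembl gene for each library, without normalization. The authors' processing notes name R 4.1.2, edgeR and limma. The annotation release, the strand used in counting and the handling of reads with several positions were not given in the sources used here. Of 56923 genes, 56236 were matched to GENCODE M39 for symbols and positions. Antisense genes on the other strand of *Id2*, *Id3* and *Id4* that are in the files held 0 to 4 counts per library.

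Counts were scaled by TMM (factors 0.880 to 1.09), and the 14504 genes that reached 1 CPM in 3 or more libraries were tested. All comparisons came from a single fit with edgeR's quasi-likelihood test (R 4.3.3, edgeR 4.0.16), with Benjamini-Hochberg adjustment over these genes. limma 3.58.1 and DESeq2 1.42.0 were used as alternatives, together with other scalings, filters and sets of libraries. Fits without a library that leave a group with a lone sample assume that it varies like the other groups. The procedure was also run on counts simulated from the same fit. Far fewer genes were changed there than were called here, so that run cannot speak for changes on this scale. Detection was taken to fail at 3 counts or fewer per library, and counting intervals were computed at 95% on summed counts. The labels call the replicates biological. The edgeR p-values set each difference against a spread between replicates estimated over all 4 groups, which also draws on the other genes.

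The 9 genes, the pathway list and the marker lists were chosen with earlier results of these data known. The pathway genes named by rule were, in each comparison, the 2 with the largest change in each direction, besides receptors and Smad transducers. The rule took called genes whose higher group reached 10 CPM in each library. *Smad7*, *Smurf1* and *Skil* were named outside this rule, after their values were seen. Other genes outside it were named as parts of a count. For *Id1*, *Id2*, *Id3* and *Bmp4*, the 3 genes with the highest correlation were named, computed on log2 CPM with a prior count of 2. Promoter sequences were read from GRCm39 with Python 3.11.15.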

Additional observations from a re-analysis of the deposited data

How the results depend on the processing

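No difference called for the 9 genes changed direction under the alternatives run, which were DESeq2's size factors, library size alone, ribosomal RNA genes left out, limma-voom, DESeq2's Wald test, a mean of 10 CPM as the filter, no filter, only the compared groups in the fit, a block for replicate number, and each library left out in turn. Differences that were not called did change sign in some of them, for *Smad6*, for *Id3* between D7 and D3 organoids, for *Bmp2* and *Bambi* between D3 organoids and 2D, and for *Bmp7* between 2D and *in vivo* TECs. Apart from left-out libraries, 106 of the 108 counts of called genes stayed within 1.5 times the main count. The exceptions came from the filter at a mean of 10 CPM, under which 24 of the other pathway genes were tested: 13 of them were called between D7 organoids and 2D cultures and 3 between D7 and D3 organoids. With a library left out, the number of the 9 genes called between 2D and *in vivo* TECs was 3 to 5, against 7 in all libraries, and the number of the 8 called between D7 and D3 organoids was 2 to 4. For the other pathway genes it was 10 to 16 between D7 organoids and *in vivo* TECs, 14 to 19 between D3 organoids and 2D cultures, and 2 to 6 between D7 and D3 organoids. Library size alone moved the median of all genes by −0.18 between 2D and *in vivo* TECs, by 0.26 between D3 organoids and 2D and by 0.20 between D7 organoids and 2D, and the values of *Id1*, *Id2* and *Bmp7* that it changed are to be read against these shifts.

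Replicate numbers were not taken as pairs. Deviations of same-numbered libraries correlated at 0.0795 to 0.219 over 9018 genes, and 3 of the 6 pairs of groups were below 0.1. With a replicate block the numbers of genes called were 6366, 4476, 5452, 5919, 6911 and 3587, against 6033, 4088, 5042, 5562, 6605 and 3012 without it, in the order 2D, D3 and D7 over *in vivo*, D3 and D7 over 2D, and D7 over D3. Among the 9 genes the block changed a single call, *Bmp7* in D7 organoids over *in vivo* TECs (0.46, adjusted p = 0.037).

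At 2 libraries per group and 1 to 38 counts of *Bmp2* and *Bambi* per culture library, the depth limits how finely these genes can be compared.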

Other observations

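The E protein genes encode the transcription factors that Id proteins bind. *Tcf4*, the E2-2 gene, had 690 and 766 CPM *in vivo*, 318 and 361 CPM in 2D, 595 and 631 CPM in D3 organoids, and 746 and 720.5 CPM in D7 organoids. It fell by 1.10 in 2D relative to *in vivo* TECs (SE 0.14, edgeR adjusted p = 7.4e-06), and D3 and D7 organoids differed from *in vivo* TECs by −0.25 (SE 0.14, adjusted p = 0.21) and 0.01 (SE 0.14, adjusted p = 0.97). *Tcf12*, the HEB gene, fell in all cultures relative to *in vivo* TECs, by 0.66 in 2D (adjusted p = 0.003), 0.48 in D3 organoids (adjusted p = 0.029) and 0.66 in D7 organoids (adjusted p = 0.0038). *Tcf3*, the E2A gene, rose in all cultures, by 0.55 in 2D (adjusted p = 0.033), 0.66 in D3 organoids (adjusted p = 0.017) and 0.63 in D7 organoids (adjusted p = 0.018).

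*Bmp1* shares its name with the ligands but encodes a metalloprotease that cleaves procollagens and the BMP antagonist chordin. It had 10.1 and 13.4 CPM *in vivo*, 33.5 and 38.1 CPM in 2D, 22.3 ± 2.34 CPM in D3 organoids (mean ± SD, n = 2), and 22.8 and 30.4 CPM in D7 organoids, so that all cultures lay above the *in vivo* libraries. It rose by 1.60 in 2D (adjusted p = 7.3e-05), 0.92 in D3 organoids (adjusted p = 0.012) and 1.16 in D7 organoids (adjusted p = 0.0019) over *in vivo* TECs. Its relative *Tll1* had 141 and 132 counts in 2D, 7 and 2 in D3 organoids, and 0 in each *in vivo* and D7 library.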
